A study of Arabidopsis thaliana with 12 samples.

Results

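The genes described here are the 5 alternative oxidase genes of Arabidopsis thaliana and 4 genes that are commonly read together with them in studies of mitochondrial stress. They are AOX1A (AT3G22370), AOX1B (AT3G22360), AOX1C (AT3G27620), AOX1D (AT1G32350, written AOX3 in the deposited tables), AOX2 (AT5G64210), UPOX (AT2G21640), NDB2 (AT4G05020), NDA2 (AT2G29990) and OM66 (AT3G50930, written HSR4 there). These 9 of the 32833 loci in the tables were chosen by locus identifier, in view of how they differed over the 4 groups of the study. Their levels and the differences between groups are therefore given as a description, with no test.

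Alternative oxidase takes electrons from the ubiquinone pool of the inner mitochondrial membrane and passes them to oxygen, bypassing the proton-pumping complexes of the cytochrome pathway. Alternative NAD(P)H dehydrogenases such as NDA2, on the matrix side, and NDB2, on the outer side, feed electrons into the same pool without pumping protons, and with the oxidase they form a complete non-phosphorylating chain. AOX1A is the textbook reporter of mitochondrial retrograde signalling, in which a disturbed mitochondrion changes the transcription of nuclear genes. NAC transcription factors released from the endoplasmic reticulum, among them ANAC013 and ANAC017, bind a short sequence called the mitochondrial dysfunction motif in the promoters of AOX1A and other responsive genes.

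RNA was sequenced from whole 10-day-old seedlings grown in long days, as 4 groups of 3 independently prepared libraries. Col-0, the common wild-type accession, was mock-treated in white light, exposed to white light plus UV-B at 5 µmol per m2 per s, or given 50 µM of the stress hormone abscisic acid (ABA) in white light. The mutant uvr8, which is affected in the UV-B photoreceptor UVR8, was exposed to white light plus UV-B. All treatments lasted 3 h. The labels do not name the uvr8 allele, and no uvr8 library in white light was analysed here, so the effect of the genotype and the effect of UV-B in uvr8 cannot be told apart.

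The UVR8 transcript was at 20.8 to 23.61 TPM (a transcript level scaled for transcript length and library total) in the uvr8 libraries, against 66.9 to 107 TPM in the 9 Col-0 libraries. Under UV-B the light-stress gene ELIP1 was at 1700 to 1771 TPM in Col-0 and at 1.05 to 2.14 TPM in uvr8, and the flavonoid gene CHS was at 2077 to 2633 TPM and 19.2 to 34.5 TPM. With ABA the dehydrin gene RAB18 was at 466 to 689 TPM, against 11.96 to 15.1 TPM in mock-treated white light, and RD29B was at 68.2 to 152 TPM against 1.40 to 4.82 TPM. The 12 libraries listed 18557 to 19214 genes at 1 TPM or more, and libraries of a group had Spearman correlations of 0.9759 to 0.9795 across genes. The 5 leaf markers were all expressed, with sums of 15495 to 22490 TPM. The 4 root markers summed to 8.92 to 36.5 TPM, nearly all of it from the nitrate transporter gene NRT2.1. IRT1, another of these 4, was listed at 0 in 11 of the 12 libraries. The 4 seed storage markers summed to at most 6.18 TPM.

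The regions next to the gene starts are shown first, because the best known regulatory motif of these genes lies there. The window searched ran from 250 bases before the annotated start to base 50 of the gene, in the TAIR10.1 build and its RefSeq annotation. The mitochondrial dysfunction motif was searched as CTTGNNNNNCAAG or CTTGNNNNNCACG, the G-box as CACGTG, the core of the ABA-responsive element as ACGTG, which every G-box contains, and the W-box bound by WRKY factors as TTGACC or TTGACT, each on both strands. The dysfunction motif was present in 4 of the 9 genes (AOX1A, AOX1B, UPOX and NDB2) and in 391 of 27443 protein-coding promoters (1.42%). G-boxes were present in AOX2 and UPOX, so in 2 of the 9 genes, and in 7.68% of all promoters. The ABA core was present in 4 of the 9 genes and 26.72% of promoters, and the W-box in 7 of the 9 genes and 32.37% of promoters. These are matches of letters, and no binding was measured. The dysfunction motif is known from the promoters of AOX1A and other responsive genes, as said above. Its share among such genes is therefore a description and no independent result.

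AOX1A held 2 matches to the dysfunction motif, both at the annotated start of its transcript, from base -3 to 10 and from base 25 to 37. They are printed 5′ to 3′ on the plus strand, at chr3:7906510-7906538 and chr3:7906537-7906565, with the motif in capitals.
AOX1A at -3: atctagctCTTGGCGACCACGcaagtatc
AOX1A at 25: tcttccatCTTGCTCTCCAAGaaaaatct

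The 13 letters of the downstream AOX1A match, CTTGCTCTCCAAG, stood also in the UPOX promoter, at bases -51 to -39. The NDB2 match lay at -79 to -67, and that of AOX1B, on the other strand, at -118 to -106. The upstream sequences follow for UPOX (chr2:9254128-9254377, plus strand), NDB2 (chr4:2572209-2572426, plus strand, cut where the preceding gene ends) and AOX1B (chr3:7903847-7904096, plus strand), with the dysfunction motif and the G-box in capitals. They show the motif shared by genes whose levels differed widely in these libraries.
UPOX upstream: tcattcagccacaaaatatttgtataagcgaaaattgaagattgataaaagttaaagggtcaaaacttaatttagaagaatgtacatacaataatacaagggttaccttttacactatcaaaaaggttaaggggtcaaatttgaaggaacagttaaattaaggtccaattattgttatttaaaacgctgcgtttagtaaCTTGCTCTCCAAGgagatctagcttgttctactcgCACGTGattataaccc
NDB2 upstream: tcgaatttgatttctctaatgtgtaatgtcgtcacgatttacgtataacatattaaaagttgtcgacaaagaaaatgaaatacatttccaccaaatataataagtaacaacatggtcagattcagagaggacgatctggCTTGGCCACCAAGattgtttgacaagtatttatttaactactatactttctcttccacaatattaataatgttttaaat
AOX1B upstream: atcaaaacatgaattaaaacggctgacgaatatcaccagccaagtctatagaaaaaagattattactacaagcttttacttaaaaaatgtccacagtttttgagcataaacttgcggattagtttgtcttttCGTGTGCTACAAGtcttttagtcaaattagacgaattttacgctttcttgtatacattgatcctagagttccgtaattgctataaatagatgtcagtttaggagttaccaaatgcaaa

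AOX2 and AOX1D, whose promoters held no match to the dysfunction motif, are shown because their levels were highest in other groups than that of AOX1A. AOX2 (chr5:25685732-25685981, minus strand) had G-boxes at -228 to -223 and -114 to -109, and AOX1D (chr1:11668691-11668940, minus strand) had the ABA core at -113 to -109. Capitals mark those letters.
AOX2 upstream: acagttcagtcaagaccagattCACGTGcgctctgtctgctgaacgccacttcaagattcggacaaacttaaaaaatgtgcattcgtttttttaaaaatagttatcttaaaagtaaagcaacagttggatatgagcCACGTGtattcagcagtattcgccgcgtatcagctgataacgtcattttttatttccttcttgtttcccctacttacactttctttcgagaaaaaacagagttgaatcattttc
AOX1D upstream: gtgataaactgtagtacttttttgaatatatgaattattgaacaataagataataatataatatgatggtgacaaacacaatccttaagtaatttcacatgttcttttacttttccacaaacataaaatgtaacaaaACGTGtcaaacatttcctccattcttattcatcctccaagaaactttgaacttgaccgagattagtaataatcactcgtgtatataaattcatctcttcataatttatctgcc

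In AOX1C, NDA2 and OM66 the window held neither the dysfunction motif, nor the G-box, nor the ABA core.

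The 5 oxidases come from 3 chromosomes. AOX1B and AOX1A lie in tandem on chromosome 3, at 7904097 to 7905576 and 7906521 to 7908746 on the plus strand, with 944 bp between them. AOX1C lies on chromosome 3 at 10229045 to 10230707, AOX1D on chromosome 1 at 11666886 to 11668690 and AOX2 on chromosome 5 at 25683770 to 25685731, all on the minus strand. The protein translated from AOX1A shares 79.94% of aligned residues with AOX1B, 77.91% with AOX1C, 65.29% with AOX1D and 64.79% with AOX2. The closest pair of transcripts, AOX1B and AOX1C, is 87.5% identical over 960 bp, and AOX1A and AOX1B are 83.548% identical over 778 bp. How reads that match both copies were assigned was not stated in the labels or files used here.

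AOX1A, the main stress-responsive oxidase, was the only oxidase above 11 TPM. In mock-treated white light its level was 45.3, 44.7 and 48.5 TPM, and under UV-B it was 143, 121 and 117 TPM. The uvr8 libraries under UV-B were at 95.1, 99.5 and 95.2 TPM, and the ABA libraries at 104, 103 and 112 TPM. The order was Col-0 under UV-B, then ABA, then uvr8 under UV-B, then white light. In TPM as deposited no group's range overlapped that of its neighbour in this order. With the TMM-style scaling described below, the ranges of Col-0 under UV-B and ABA overlapped. Group means were 2.75-fold higher under UV-B and 2.30-fold higher with ABA than in white light. The mean of uvr8 under UV-B was 2.09-fold that of Col-0 in white light and 0.761 of that of Col-0 under UV-B. On the log2(TPM + 1) scale the difference was 1.44 ± 0.08 (SE, 3 libraries a group, as for every SE here) for UV-B, 1.18 ± 0.08 for ABA and -0.39 ± 0.08 for uvr8 against Col-0 under UV-B. These are whole seedlings, so a change in the number of cells of a type and a change in RNA per cell cannot be told apart.

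AOX1D, which encodes a stress-responsive oxidase of the same subfamily, had its highest level in another group. It was at 0.60, 1.03 and 0.72 TPM in white light and at 1.33, 1.35 and 1.59 TPM in Col-0 under UV-B. In uvr8 under UV-B it was at 7.23, 10.2 and 8.66 TPM, above all 9 Col-0 libraries. With ABA it was at 1.56, 2.16 and 4.72 TPM, a range that overlapped that of Col-0 under UV-B with replicate 3 the highest of the 3. The mean in uvr8 under UV-B was 11.1-fold that of Col-0 in white light and 6.10-fold that of Col-0 under UV-B. On the log2(TPM + 1) scale, which understates the change of a gene this low, these differences were 2.44 ± 0.25 and 1.99 ± 0.25. The ABA difference was 1.02 ± 0.25, and 0.68 without ABA replicate 3.

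AOX2, known as the oxidase of seeds, was detected almost entirely in the ABA group. It was at 2.71, 1.53 and 1.85 TPM with ABA, at 0.06, 0 and 0.05 TPM in white light, and at 0 in each of the 6 libraries from UV-B-treated seedlings. It passed the filter on low values only through the ABA libraries. The 4 seed storage markers summed to 0.13 to 6.18 TPM in the ABA group, a range that includes the sums in white light, and their part in the AOX2 level was not tested.

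AOX1C, an oxidase known for developmental rather than stress-dependent expression, stayed between 1.48 and 3.24 TPM. It was at 3.03, 2.99 and 1.55 TPM in white light, 2.56, 3.24 and 2.28 TPM in Col-0 under UV-B, 1.96, 2.16 and 1.95 TPM in uvr8 and 1.48, 2.47 and 1.81 TPM with ABA. Neighbouring ranges overlapped in all 3 steps of the order, and the differences of means ran from -0.28 to 0.09 on the log2(TPM + 1) scale, each with an SE of 0.20. The ranges of uvr8 and Col-0 under UV-B, which are not neighbours in that order, did not overlap, at 1.95 to 2.16 and 2.28 to 3.24 TPM. AOX1B, the tandem neighbour of AOX1A, was listed at 0 in all 12 libraries.

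The sum of the 5 oxidase transcripts was 49.5 ± 1.13 TPM (SD, n = 3) in white light, 131 ± 14.1 under UV-B, 107 ± 3.97 in uvr8 under UV-B and 113 ± 6.09 with ABA. AOX1A made up 93.2% ± 1.95, 96.8% ± 0.503, 90.0% ± 1.11 and 94.0% ± 0.912 of it in these groups. AOX1D made up 8.07% ± 1.09 in uvr8 under UV-B and at most 3.94% in any Col-0 library. AOX2 made up 1.40% to 2.47% in the ABA libraries.

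**Figure D1:**
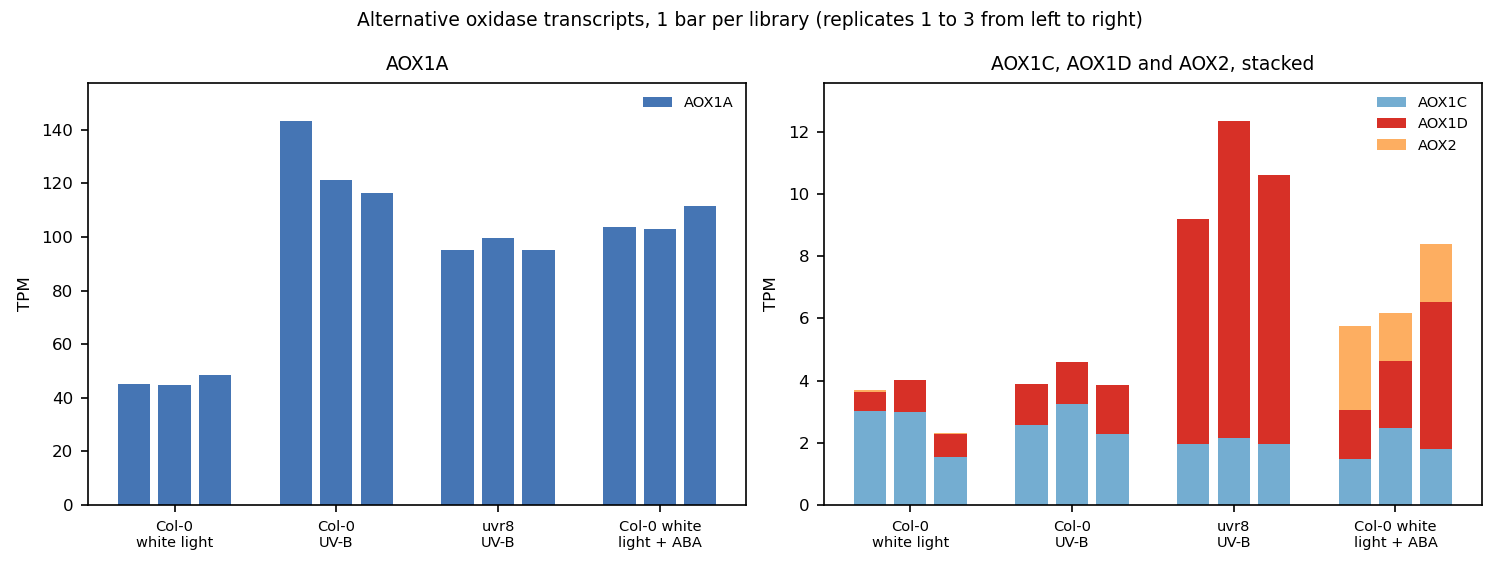
Bars give the level in TPM of AOX1A (left) and of AOX1C, AOX1D and AOX2, stacked (right), in each of the 3 libraries of the 4 groups; AOX1B was listed at 0. AOX1A was lowest in white light, AOX1D was highest in the uvr8 libraries at 7.23 to 10.2 TPM, and AOX2 was visible with ABA at 1.53 to 2.71 TPM.

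The dehydrogenases differed from AOX1A in which treatment went with a high level. NDB2, the external NADH dehydrogenase often induced together with AOX1A, was at 29.7, 28.8 and 30.6 TPM in white light and at 80.3, 96.0 and 110.3 TPM with ABA. It was at 26.4, 25.2 and 22.6 TPM in Col-0 under UV-B and at 38.7, 39.6 and 45.1 TPM in uvr8 under UV-B. In TPM as deposited the 4 ranges did not overlap between neighbours, and the ABA group was highest and Col-0 under UV-B lowest. The mean with ABA was 3.22-fold that of white light, a difference of 1.64 ± 0.11 on the log2(TPM + 1) scale. The UV-B difference in Col-0 was -0.26 ± 0.11, and -0.09 after TMM-style scaling, which divides each library by the trimmed mean of its ratios to a reference library.

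NDA2, an internal NADH dehydrogenase, was at 7.70, 8.99 and 9.89 TPM in white light and at 6.45, 4.43 and 6.78 TPM in Col-0 under UV-B. It was at 13.3, 13.5 and 12.8 TPM in uvr8 under UV-B and at 10.58, 11.96 and 11.92 TPM with ABA. In TPM as deposited its order was uvr8, ABA, white light, Col-0 under UV-B, with no overlap between neighbours. After TMM-style scaling the ranges of uvr8 and ABA overlapped, so which of them was higher rested on the scaling. The ABA difference went from 0.35 ± 0.14 to 0.58 on the log2(TPM + 1) scale with that scaling. The difference between the genotypes under UV-B was 1.06 ± 0.14 on the log2(TPM + 1) scale, and the UV-B difference in Col-0 was -0.53 ± 0.14. NDB2 lies on chromosome 4 at 2572427 to 2576599 on the plus strand and NDA2 on chromosome 2 at 12793320 to 12796085 on the minus strand.

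UPOX, which encodes a small mitochondrial protein that responds to oxidative stress, was high in both genotypes under UV-B. It was at 9.87, 11.7 and 14.0 TPM in white light, at 49.9, 41.8 and 42.2 TPM in Col-0 under UV-B and at 54.5, 57.6 and 67.0 TPM in uvr8 under UV-B. With ABA it was at 9.21, 9.67 and 6.28 TPM, below all white-light libraries. The UV-B mean was 3.76-fold the white-light mean in Col-0, and the uvr8 mean under UV-B was 5.03-fold that of Col-0 in white light. The differences on the log2(TPM + 1) scale were 1.83 ± 0.16 and 2.25 ± 0.16, and that of ABA was -0.46 ± 0.16. After TMM-style scaling the ABA difference was -0.23, and that of uvr8 against Col-0 under UV-B went from 0.41 ± 0.16 to 0.19.

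OM66, an AAA ATPase of the outer mitochondrial membrane that is also induced in salicylate-dependent defence, was highest in uvr8. It was at 14.3, 15.3 and 17.3 TPM in white light, 23.9, 15.9 and 19.5 TPM in Col-0 under UV-B and 20.4, 16.1 and 25.0 TPM with ABA, and these 3 ranges overlapped. In uvr8 under UV-B it was at 32.4, 35.0 and 27.3 TPM, above all other libraries in TPM as deposited. After TMM-style scaling the ranges of uvr8 and ABA overlapped, and the white-light range lay below those of Col-0 under UV-B and ABA. The mean in uvr8 under UV-B was 2.02-fold that of Col-0 in white light, a difference of 0.97 ± 0.17 on the log2(TPM + 1) scale, and the genotypes differed under UV-B by 0.66 ± 0.17. UPOX lies on chromosome 2 at 9254378 to 9255743 and OM66, a gene of 1 exon, on chromosome 3 at 18929526 to 18932181, both on the plus strand.

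**Figure D2:**
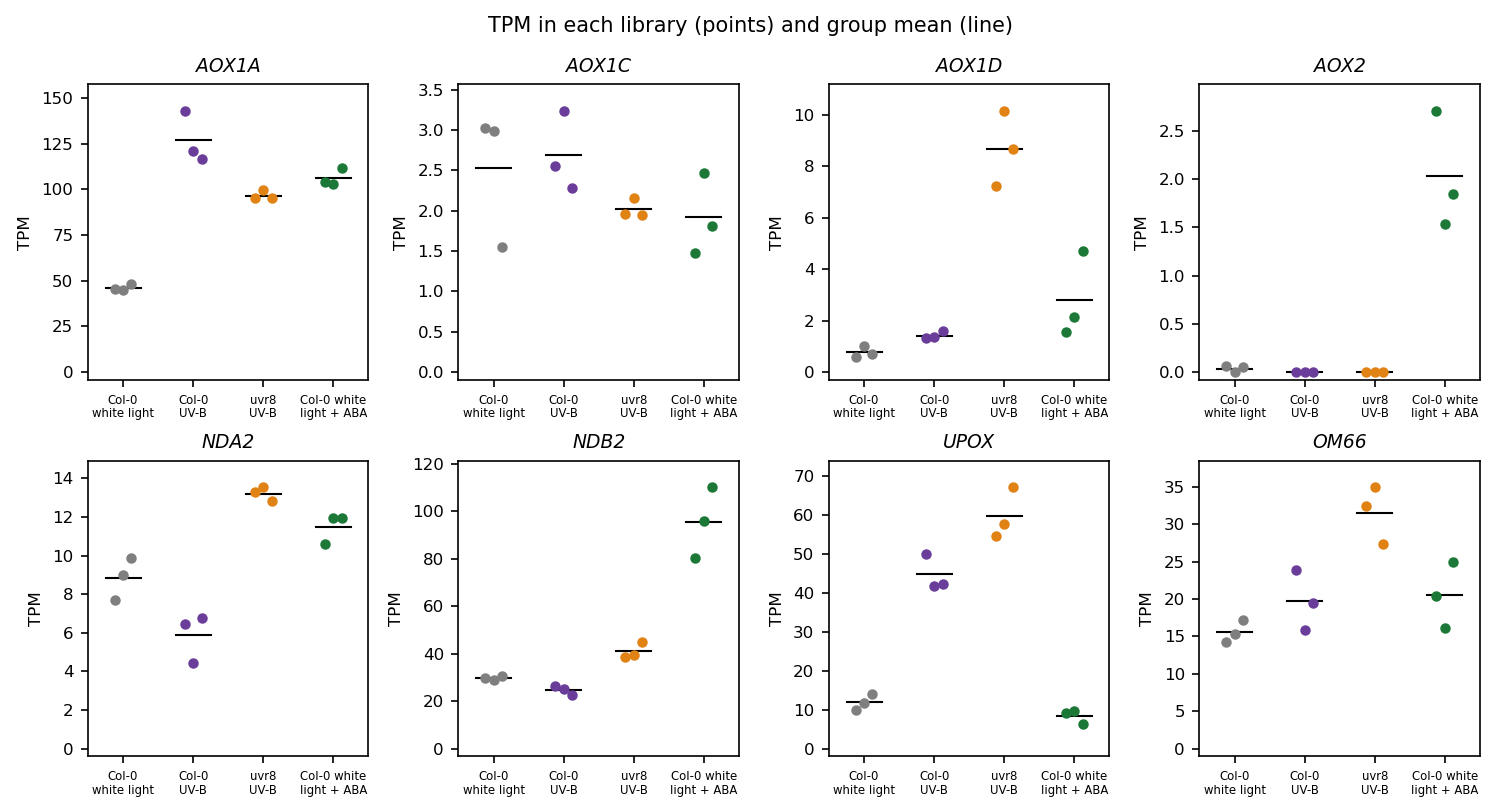
Points give the TPM of each library and lines the mean of 3 libraries, by group, for the 8 genes with a level above 0; each panel has its own linear axis from 0. AOX1A and UPOX were higher under UV-B in Col-0, NDB2 and AOX2 were highest with ABA, and AOX1D, NDA2, UPOX and OM66 were highest in uvr8 under UV-B.

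Set side by side, the 9 genes fell into no common pattern. In TPM as deposited AOX1A was highest in Col-0 under UV-B, AOX1D, UPOX, NDA2 and OM66 in uvr8 under UV-B, and NDB2 and AOX2 with ABA. For NDA2 the place of uvr8 above ABA rested on the scaling. UPOX was the only one of the 9 with means above white light in both UV-B groups and below it with ABA. Also in TPM as deposited, NDB2 and NDA2 were below the white-light range in Col-0 under UV-B and above it in uvr8 under UV-B. The comparisons share the white-light or the UV-B libraries of Col-0, so the values of one gene in them are not independent.

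The fit across the 19922 genes that reached 1 TPM in 3 or more libraries, made with the linear-model tool limma and Benjamini-Hochberg adjustment, gives the background to these values; 8 of the 9 genes were in it. Under UV-B in Col-0 it called 12.3% of genes higher and 27.8% lower at an adjusted p under 0.05, and of the 8 genes 2 were called higher and 1 lower. In uvr8 against Col-0 under UV-B it called 32.8% higher and 11.1% lower, and 4 of the 8 genes were called higher and 1 lower. With ABA it called 15.2% higher and 39.4% lower, and 5 of the 8 were called higher and 1 lower. In UV-B-treated uvr8 relative to mock-treated Col-0 it called 3.83% higher and 1.28% lower, and 6 of the 8 were called higher and 0 lower. After TMM-style scaling the counts higher and lower were 3 and 1 for UV-B, 4 and 1 for uvr8 against Col-0 under UV-B, 6 and 0 for ABA and 5 and 0 for UV-B-treated uvr8 relative to mock-treated Col-0. OM66 was then called higher for UV-B and ABA, while UPOX with ABA and NDB2 in the last comparison were no longer called. AOX2, counted as higher with ABA, had passed the filter only through that group. Nothing is read from the counts of the 8 genes, since these contrasts chose them.

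The direction of calls across all genes depended on the scaling. The median difference of all genes on the log2(TPM + 1) scale was -0.15 for UV-B, 0.20 for uvr8 against Col-0 under UV-B, -0.24 for ABA and 0.04 for UV-B-treated uvr8 relative to mock-treated Col-0. TMM-style scaling brought these medians to between -0.0146 and -0.0024, and changed the calls for UV-B from 2451 higher and 5543 lower to 3737 and 3461. It changed those for uvr8 against Col-0 from 6538 higher and 2218 lower to 3599 and 3841, those for ABA from 3030 and 7851 to 4806 and 4236, and those for UV-B-treated uvr8 relative to mock-treated Col-0 from 763 and 255 to 622 and 462. Of the genes described here no called difference changed sign under it, and AOX1A in uvr8 against Col-0 under UV-B moved from -0.39 to -0.61. Each library was divided by its factor, 1.051 to 1.1403 in uvr8 and 0.8333 to 0.9223 with ABA. Orders and ranges above are in TPM as deposited. After scaling, ranges overlapped between Col-0 under UV-B and ABA for AOX1A, and between uvr8 and ABA for NDA2 and OM66. White light then overlapped Col-0 under UV-B for NDB2 and ABA for UPOX, and the genotypes under UV-B overlapped for UPOX. Overlaps were lost between white light and both Col-0 under UV-B and ABA for OM66. For AOX1D the overlap between ABA and Col-0 under UV-B was lost, by a small margin.

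**Figure D3:**
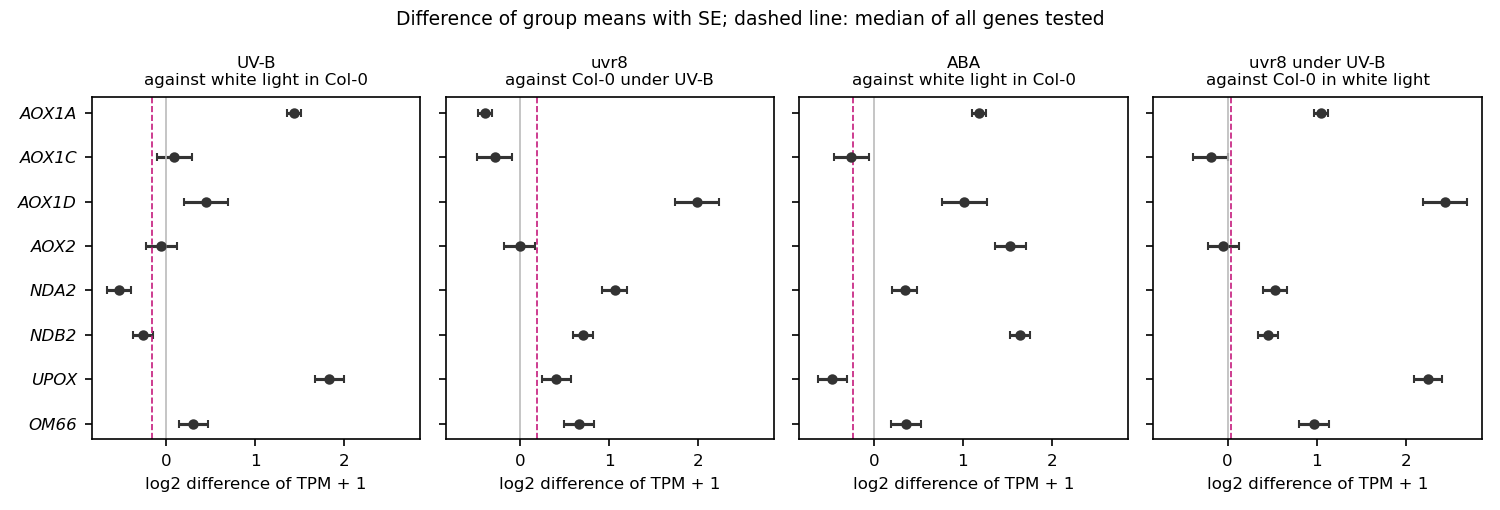
Points give the difference of group means on the log2(TPM + 1) scale with its SE for 8 genes in the 4 comparisons; the dashed line is the median of all 19922 genes. UPOX lay at 1.83 and AOX1A at 1.44 for UV-B in Col-0, AOX1D at 2.44 for UV-B-treated uvr8 relative to mock-treated Col-0, and NDB2 at 1.64 for ABA.

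The other genes of the pathway were listed by function and were tested in the same limma fit. Each count from that fit is to be read beside the shares of all genes called there. These were 12.3% higher and 27.8% lower for UV-B, and 15.2% and 39.4% for ABA. They were 32.8% and 11.1% for uvr8 against Col-0 under UV-B, and 3.83% and 1.28% for UV-B-treated uvr8 relative to mock-treated Col-0. Counts after TMM-style scaling are instead to be read beside the calls it made among 19888 genes. Those were 3737 higher and 3461 lower for UV-B, and 4806 and 4236 for ABA. For uvr8 against Col-0 under UV-B they were 3599 and 3841, and for UV-B-treated uvr8 relative to mock-treated Col-0 622 and 462. Among the other alternative dehydrogenases and the plastid terminal oxidase PTOX, 5 of 6 genes were tested. For UV-B 2 rose and 1 fell, for ABA 1 rose and 2 fell, and in uvr8 against Col-0 under UV-B 1 was higher and 2 lower. After TMM-style scaling these counts were 3 and 1, 2 and 2, and 1 and 3. In UV-B-treated uvr8 relative to mock-treated Col-0 0 of the 5 were called in either direction under both scalings, and 1 of them, NDC1, had an unadjusted p under 0.05, at 0.0247, in the limma fit.

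NDA1, the light-responsive internal dehydrogenase whose protein is 83.73% identical to NDA2, did not share the order of its relative. It was at 4.99, 4.48 and 5.68 TPM in white light, 28.6, 24.6 and 25.9 TPM in Col-0 under UV-B, 4.50, 4.64 and 4.96 TPM in uvr8 under UV-B and 5.01, 5.49 and 5.63 TPM with ABA. The 3 libraries of Col-0 under UV-B stood alone. NDA1 rose by 2.18 ± 0.10 on the log2(TPM + 1) scale under UV-B (adjusted p = 1.38e-08), and was lower in uvr8 than in Col-0 under UV-B by a log2 difference of -2.26 ± 0.10 (adjusted p = 1.13e-08). Its promoter holds a dysfunction motif at -70 to -58, CTTGCGCATCAAG. Transcripts of NDA1 and NDA2 are 82.712% identical over 1342 bp.

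NDC1, a dehydrogenase sent to both mitochondria and chloroplasts, rose by 0.99 ± 0.08 under UV-B (adjusted p = 1.24e-06), with means of 19.7 TPM in white light and 40.01 TPM under UV-B. NDB1, the external NADPH dehydrogenase, fell by 0.53 ± 0.10 with ABA (adjusted p = 6.64e-04), from a mean of 13.3 to 8.94 TPM. Its relative NDB2 was highest with ABA, as described above. NDB3, whose transcript is 83.866% identical to that of NDB2 over 1785 bp, was listed at no more than 0.31 TPM.

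In the cytochrome pathway and ATP synthase, 32 of 33 nuclear genes were tested. For UV-B 10 rose and 4 fell, for ABA 6 rose and 11 fell, and in uvr8 against Col-0 under UV-B 9 were higher and 7 lower. The 11 lower with ABA and the 9 higher in uvr8 were no larger shares than the 39.4% and 32.8% of all genes. TMM-style scaling changed the counts to 12 and 0 for UV-B, 13 and 1 for ABA, and 0 and 13 for uvr8 against Col-0. The balance of directions for ABA and for uvr8 thus rested on the scaling. In UV-B-treated uvr8 relative to mock-treated Col-0 4 were higher and 0 lower, against 1 and 0 after scaling. CYTC-2, a gene for the electron carrier cytochrome c, had means of 42.2 TPM in white light, 187 TPM in Col-0 under UV-B, 57.3 TPM in uvr8 under UV-B and 73.8 TPM with ABA. It rose by 2.13 ± 0.10 under UV-B in Col-0 (adjusted p = 1.54e-08) and was lower by a log2 difference of -1.70 ± 0.10 in uvr8 against Col-0 under UV-B (adjusted p = 1.34e-07). COX15, needed to make heme A for cytochrome oxidase, rose from a mean of 14.1 to 53.7 TPM under UV-B (log2 difference 1.85 ± 0.09, adjusted p = 2.71e-08) and was at 17.4 TPM in uvr8. SDH2-1, an iron-sulphur subunit of succinate dehydrogenase, rose from 32.6 to 92.0 TPM (log2 difference 1.47 ± 0.07, adjusted p = 1.35e-08).

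The mitochondrial chaperones, proteases and prohibitins were all tested, 16 of 16. Under UV-B 4 rose and 1 fell, and in uvr8 against Col-0 under UV-B 1 was higher and 5 lower. With ABA 1 rose and 12 fell, which became 3 and 5 after TMM-style scaling; the same scaling gave 9 and 0 for UV-B and 0 and 8 for uvr8 against Col-0. In UV-B-treated uvr8 relative to mock-treated Col-0 1 was higher and 0 lower under both scalings. SLP2, a stomatin-like protein gene, rose by 1.54 ± 0.11 under UV-B (adjusted p = 5.96e-07) from a mean of 23.1 to 69.1 TPM. FTSH10, an inner-membrane protease gene, rose by 1.20 ± 0.12 (adjusted p = 1.31e-05), and HSC70-2, a matrix chaperone gene, by 0.57 ± 0.11 (adjusted p = 0.00138). Both were lower in uvr8 than in Col-0 under UV-B, with adjusted p = 1.91e-05 and 4.46e-04.

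Of 17 other mitochondrial stress and uncoupling genes 16 were tested, and in UV-B-treated uvr8 relative to mock-treated Col-0 9 were higher and 0 lower, where 3.83% of all genes were called higher. After TMM-style scaling the counts were 9 and 1. For UV-B in Col-0 8 rose and 3 fell, for ABA 6 rose and 3 fell, and in uvr8 against Col-0 under UV-B 8 were higher and 1 lower. After scaling these were 9 and 2, 9 and 3, and 8 and 4. The list was drawn up from general knowledge with earlier results of these libraries known, and its counts are a description.

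UGT74E2, which encodes an auxin-precursor glucosyltransferase responsive to hydrogen peroxide, was at 7.32, 7.77 and 9.25 TPM in white light and at 61.8, 76.6 and 57.9 TPM in uvr8 under UV-B. In Col-0 under UV-B it was at 27.5, 19.6 and 18.0 TPM, and with ABA at 31.5, 38.0 and 39.5 TPM. It was called higher in all 4 comparisons, among them by 1.30 ± 0.16 for UV-B (adjusted p = 5.27e-05), 2.03 ± 0.16 for ABA (adjusted p = 8.19e-07) and 2.86 ± 0.16 for UV-B-treated uvr8 relative to mock-treated Col-0 (adjusted p = 1.81e-06). SOT12, a sulfotransferase gene, had means of 28.3, 66.3, 142 and 69.3 TPM in white light, Col-0 UV-B, uvr8 UV-B and ABA, and rose by 2.29 ± 0.10 in UV-B-treated uvr8 relative to mock-treated Col-0 (adjusted p = 8.86e-08). Dysfunction motifs stood in the windows of 6 of the 17 genes of this list, those of UGT74E2 and SOT12 among them, and in 1.42% of all promoters. They stood in 2 of 6 genes of the dehydrogenase list, 1 of 14 regulators, 1 of 33 cytochrome pathway genes and 3 of 16 chaperone-list genes. As for the 9 genes, these counts are a description and no independent result, and a link to the levels was not tested. DIC3, a dicarboxylate carrier gene of the uncoupling protein family, was highest with ABA, as AOX2 was. It was at 10.07, 8.75 and 15.9 TPM with ABA and at 0.40 to 0.70 TPM in white light, a log2(TPM + 1) difference of 3.00 ± 0.25. Like AOX2 it passed the filter on low values only through the ABA libraries, so it had to differ there, and no p is given. It is 1 of the 6 genes counted as higher with ABA in the list of other stress and uncoupling genes.

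**Figure D4:**
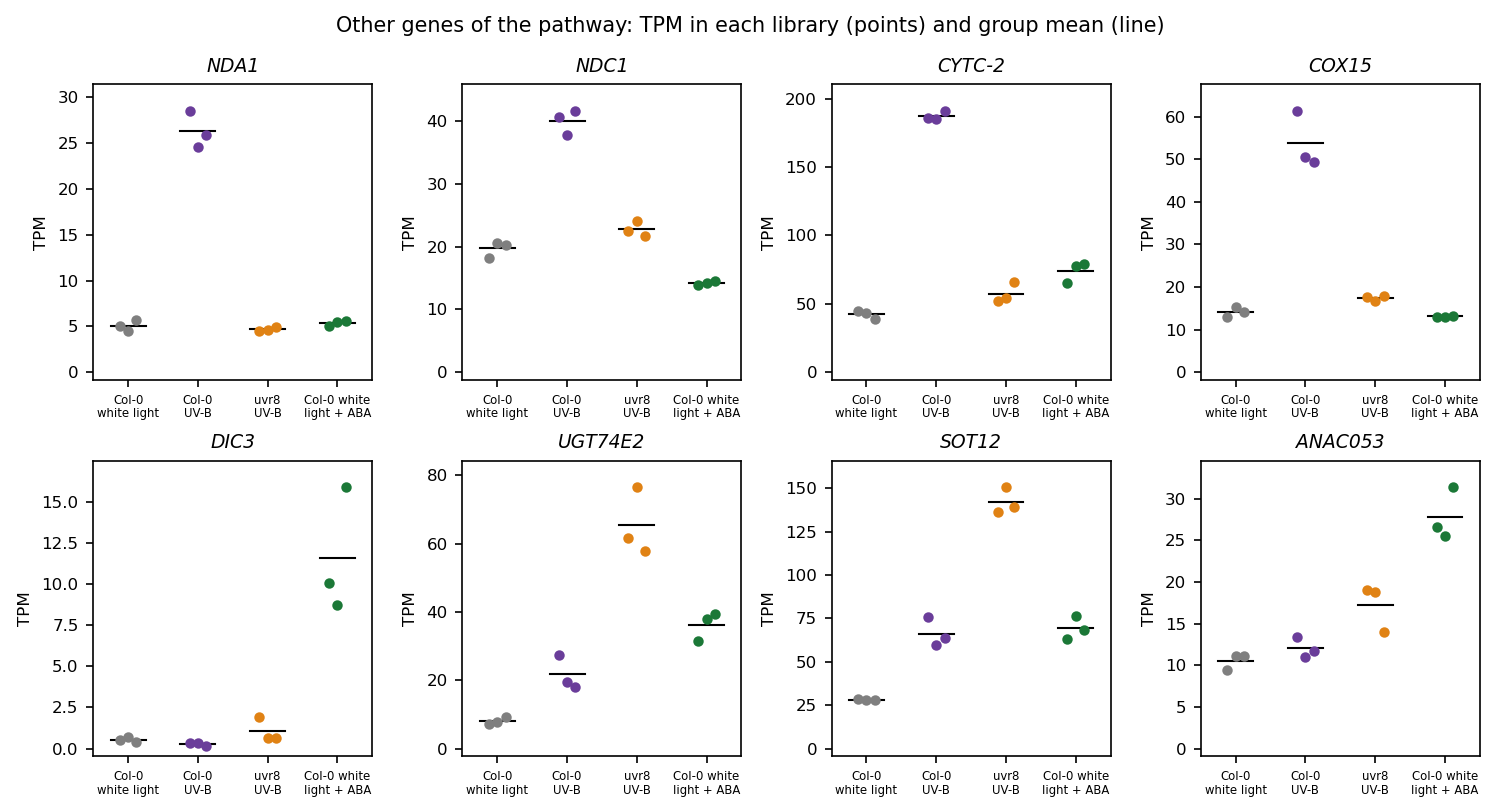
Points give the TPM of each library and lines the group mean of 3 libraries for 8 other genes of the pathway, each on its own linear axis from 0. NDA1, NDC1, CYTC-2 and COX15 were highest in Col-0 under UV-B, UGT74E2 and SOT12 in uvr8 under UV-B, and DIC3 and ANAC053 with ABA.

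Of 14 regulators of mitochondrial retrograde signalling 13 were tested, and ABI4 was listed at 0 in all libraries. For UV-B 2 rose and 3 fell, for ABA 3 rose and 1 fell, in uvr8 against Col-0 under UV-B 7 were higher and 3 lower, and in UV-B-treated uvr8 relative to mock-treated Col-0 5 were higher and 0 lower. After TMM-style scaling these were 5 and 1, 6 and 1, 4 and 4, and 4 and 1. WRKY63, counted as higher in uvr8 in both comparisons, passed the filter only through the uvr8 libraries. ANAC013 (AT1G32870), which binds the dysfunction motif, was at 15.4, 18.3 and 19.4 TPM in white light, 53.0, 39.9 and 44.9 TPM in Col-0 under UV-B, 36.2, 37.2 and 30.7 TPM in uvr8 and 37.7, 32.4 and 36.4 TPM with ABA. It rose by 1.32 ± 0.12 under UV-B (adjusted p = 5.29e-06) and by 0.97 ± 0.12 with ABA (adjusted p = 4.13e-05). Its lower level in uvr8 than in Col-0 under UV-B, -0.39 ± 0.12 with adjusted p = 0.0213, was no longer called without Col-0 UV-B replicate 1 or without uvr8 replicate 3, where the differences were -0.28 and -0.31. ANAC053, a related factor that acts in the proteasome stress response, rose by 1.32 ± 0.13 with ABA (adjusted p = 5.72e-06). WRKY40, known as a repressor of mitochondrial stress genes, was higher by 1.26 ± 0.17 in uvr8 than in Col-0 under UV-B (adjusted p = 9.30e-05), with means of 118 and 49.4 TPM.

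Among 15101 genes with a mean of at least 5 TPM, the one whose log2(TPM + 1) level was most like that of AOX1A over the 12 libraries was ANAC013, with Pearson's r of 0.975. The next were the zinc-finger gene STZ at 0.948, AT1G33490 at 0.947, the beta-glucosidase gene BGLU10 at 0.944 and AT3G19900 at 0.934. ANAC013 had the same order of group means as AOX1A except that uvr8 under UV-B, at 34.7 ± 3.51 TPM (SD, n = 3), and ABA, at 35.5 ± 2.75 TPM, did not differ beyond their spread. The genes most like OM66 were AT5G23540 at 0.946, the proteasome gene RPT3 at 0.941, the zinc-finger gene CZF1 at 0.939, the receptor-like kinase gene CRK11 at 0.931 and AT5G13210 at 0.930. The 12 points share their 4 group means and their libraries, so these r are a description. With TMM-style scaling 5 of the 10 genes stayed among the 5 most alike.

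**Figure D5:**
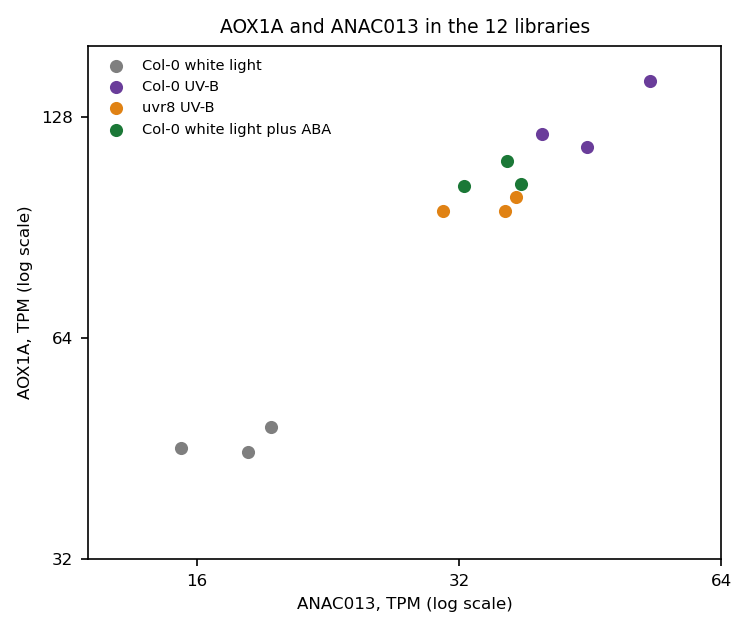
Each of the 12 points is 1 library, coloured by group, with the TPM of ANAC013 on the horizontal and of AOX1A on the vertical axis, both on a log scale. The white-light libraries lie apart at 15.4 to 19.4 and 44.7 to 48.5 TPM, and the highest point is Col-0 under UV-B replicate 1 at 53.0 and 143 TPM.

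The leaf and the root markers both moved with the treatments. The leaf markers summed to 18711 to 22490 TPM in white light, 17866 to 20762 TPM in Col-0 under UV-B, 17981 to 18217 TPM in uvr8 under UV-B and 15495 to 18361 TPM with ABA. The ABA and uvr8 sums did not overlap those of white light, but CAB1 was the largest part of each sum and the markers did not move together. In the limma fit 4 of the 5 leaf markers (RBCS1A, CAB1, RCA and PSAF) were called lower with ABA, against 0 of the 5 after TMM-style scaling. Under UV-B in Col-0 RBCS1A was called higher (0.31 ± 0.10) and LHCB2.2 lower (-0.55 ± 0.19). After TMM-style scaling 2 of the 5 were called higher there and 0 lower, so the lower call of LHCB2.2 rested on the scaling. In UV-B-treated uvr8 relative to mock-treated Col-0 only LHCB2.2 was called, as lower (-0.76 ± 0.19), and RBCS1A was at 0.17 ± 0.10. The sum of the root markers was 34.9 to 36.5 TPM in white light, 19.0 to 24.0 TPM in Col-0 under UV-B, 26.6 to 35.1 TPM in uvr8 under UV-B and 8.92 to 13.4 TPM with ABA, nearly all of it from the nitrate transporter gene NRT2.1. The sums with ABA did not overlap those of any other group, and neither did the NDB2 levels. The part of tissue composition in the levels of NDB2 or any other gene was not tested.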

How the data were processed

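Transcript levels came from 12 deposited tables, 1 per library, with a locus identifier, a name and 1 value per gene. The values are TPM as deposited by the authors; that unit was read from the values, which sum to 998198 to 998681 in each library, and TPM keeps no read depth, so no counting interval can be given. Per the submitters' processing notes the build was TAIR10. The aligner, the counter and the strand setting were not given in the sources read. Libraries were grouped by their labels into 4 groups of 3, prepared separately from germination on, per the labels' protocols.

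The 19922 of 32833 genes that reached 1 TPM in 3 or more libraries were fitted as log2(TPM + 1), in R 4.3.3 by limma 3.58.1 and its trended variance, as 4 group means over all 12 libraries, and adjusted by Benjamini-Hochberg at 0.05. The fit was tested on simulated data with 200 changed genes, as many raised as lowered. Far more genes were called in these libraries, so that test does not bear on the choice of scaling. Gene positions, promoter windows, transcript identities (BLAST+ 2.17.0, alignments of at least 100 bp) and protein identities (Biopython 1.88, from translated coding sequences) came from the RefSeq annotation of TAIR10.1, matched by locus identifier for 32548 loci.

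The 9 genes, the pathway lists and the rule for naming genes were chosen with earlier results of these data known. All 9 were named. From each list the rule took the 3 called genes with the largest absolute log2 difference in any comparison and a mean of at least 5 TPM in the higher group, and for AOX1A and OM66 the 5 genes most like them; NDB3, ABI4 and WRKY63 are named in addition, after their values were seen. Alternatives were TMM-style scaling (30% of log ratios trimmed, and 5% by mean level), no filter, no trend, a pseudocount of 0.1 TPM, only the 2 groups compared, a replicate block, and each library left out.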

Additional observations from a re-analysis of the deposited data

How the results depend on the processing

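Alternatives were scaling, filter, trend, pseudocount, groups in the fit, block and each library left out. Of 378 values of the 8 genes in the fit, which leaves out AOX1B, 359 moved by less than the spread between replicates, 19 moved by more and 0 changed the sign of a called difference. Of the 19, 11 moved under TMM-style scaling, where 21 did not. Another 7 moved with a pseudocount of 0.1 TPM, where 25 did not. Many of the 378 came from refits with 1 library left out, where 1 value moved, that of AOX1D without ABA replicate 3. Of 717 values of the 15 named list genes 686 kept their direction and side of the threshold, 25 lost and 6 gained a call. Counts of called genes moved by over 1.5 times as follows, and the causes were not tested. In UV-B-treated uvr8 relative to mock-treated Col-0 the 1018 calls became 426 to 757 with 1 library left out, lowest without Col-0 white light replicate 1; for the regulators 5 became 2 to 4, and for the cytochrome pathway 4 became 0 to 1, 1 with TMM-style scaling, 0 without the trend and 2 with only the 2 groups. For UV-B, with 1 library left out, the 5 calls of the regulators became 3 to 4, the 14 of the cytochrome pathway 9 to 14, lowest without white light replicate 2 or 3, and the 5 of the chaperones 3 to 5, against 9 with TMM-style scaling. For ABA the 17 calls of the cytochrome pathway became 11 to 15 with 1 library left out, lowest without white light replicate 2. With TMM-style scaling the ABA counts were 7 for the regulators (4 before) and 8 for the chaperones (13 before), and 5 of the 10 genes most like AOX1A and OM66 were shared.

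Same-numbered libraries of different groups deviated together in 7 of 18 pairs (r over 0.1, range -0.132 to 0.256). The labels do not say that a number marks a shared batch. With 3 libraries a group these correlations cannot decide whether it does, and the main fit used no block. A replicate block gave 7656 calls for UV-B, 8481 for uvr8 against Col-0, 10611 for ABA and 870 for UV-B-treated uvr8 relative to mock-treated Col-0, against 7994, 8756, 10881 and 1018. Low genes such as AOX1D depended on the pseudocount: with 0.1 TPM its difference in UV-B-treated uvr8 relative to mock-treated Col-0 was 3.33 instead of 2.44. Read depth is unknown, so a level listed at 0 has no stated limit.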
